A study of Mus musculus with 12 samples.

Results

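Integrins are receptors made of 1 alpha and 1 beta subunit that tie a cell to the matrix around it, and laminins are matrix proteins assembled from an alpha, a beta and a gamma chain. Every gene of these families in the table was taken by its symbol: Itga followed by a number, by 2b or by a single letter, Itgb followed by a single digit, or Lama, Lamb or Lamc followed by a single digit. The rule used no measured value and found 37 of the 46488 genes with a symbol, of which 18 encode integrin alpha subunits, 8 integrin beta subunits and 11 laminin chains. As background, the alpha subunit largely sets which ligand an integrin binds (laminin, collagen, or proteins with an Arg-Gly-Asp motif such as fibronectin), and the cytoplasmic tail of the beta subunit connects to talin, kindlin and the actin cytoskeleton. A basement membrane rich in laminin surrounds each skeletal muscle fibre, with an integrin made of the Itga7 and Itgb1 products as a main laminin receptor of the fibre. Defects of the laminin chain Lama2 or of Itga7 cause inherited muscle disease.

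RNA was sequenced from C2C12 cells, a mouse myoblast line whose cells fuse into myotubes when they differentiate. The 4 groups were WT_0d and WT_5d, control cells collected on day 0 (0d) and day 5 (5d), and PPARγ/+_0d and PPARγ/+_5d, cells that overexpress PPARγ, the nuclear receptor known for driving adipocyte formation, on the same days. Each group had 3 libraries, and 5d was compared with 0d in each cell type, PPARγ/+ with WT on each day, and the change over time between the cell types. The WT libraries are named for PB-IP, the PiggyBac vector, and in PPARγ/+ cells this vector carried the PPARγ coding sequence and was followed by puromycin selection. The number of clones is not stated. The series text speaks instead of inducible cells with uninduced controls, whereas the methods name no inducer, so what the control cells carried is not settled. The methods give 1 culture medium and name no separate differentiation medium. Beyond the study calling them biological replicates, nothing says that the libraries came from separate cultures, so the p-values measure the spread between these samples.

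The values were FPKM, which scale fragments by gene length and sequencing depth. Fragment counts recovered from them came to between 15557940 and 22013355 on genes in a library, with a median of 18737061. Genes with at least 0.1 FPKM in at least 3 of 12 libraries were tested with limma on log2(FPKM + 0.1), which gave 18023 genes. Of the 37 members 30 were tested, namely 13 alpha subunits, 8 beta subunits and 9 laminin chains. Itga8 and Lama1 reached 0.1 FPKM in 5d libraries and in no 0d library, Itga4 in the WT_5d libraries alone, and Itgad in PPARγ/+ libraries and in no WT library, so for them a difference was built into the filter, for Itga4 between the days, between the cell types on 5d and in the interaction. Itga2, Itga9, Itgal, Itgam, Itgax, Lama3 and Lamc3 were not tested. A change over time was called at an unadjusted p of at most 0.05 and a change of at least 2-fold, and a difference between cell types at an adjusted p of at most 0.05 and at least 2-fold. A difference between the cell types in the change over time, the interaction, was called at an adjusted p of at most 0.05. Fold changes are given on the log2 scale with the standard error (SE), and adjusted p-values are over all 18023 genes.

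The groups matched their labels in Pparg and in most of the muscle markers. Pparg measured 7.56, 5.10 and 6.92 FPKM in WT_0d, 3.12, 3.53 and 4.59 in WT_5d, 44.4, 28.0 and 46.4 in PPARγ/+_0d, and 40.1, 44.1 and 92.7 in PPARγ/+_5d, and every PPARγ/+ library lay above every WT library of its day. The log2 difference was 2.57 ± 0.24 on 0d (adjusted p = 0.0115) and 3.85 ± 0.34 on 5d (adjusted p = 0.0379), where reads of the introduced coding sequence cannot be told apart from those of the gene of the cell. Left out 1 at a time, PPARγ/+_0d replicate 3 ended the call on 0d (adjusted p = 0.0560), and WT_5d replicates 1 and 2 and PPARγ/+_5d replicates 1 and 2 ended that on 5d (adjusted p from 0.125 to 0.151), with log2 differences of 2.43 on 0d and 3.73 to 4.07 on 5d. Of the 8 skeletal muscle markers (Myod1, Myf5, Myog, Des, Myh3, Ckm, Acta1 and Actc1) 6 rose from 0d to 5d in WT cells and 7 in PPARγ/+ cells. Myog, a transcription factor of myoblast differentiation, rose by a log2 fold change of 5.40 ± 0.88 in WT cells (adjusted p = 0.00473) and 5.90 ± 0.51 in PPARγ/+ cells (adjusted p = 0.000200). Myf5, a transcription factor of myoblasts, fell in WT cells (-1.46 ± 0.20, adjusted p = 0.00268) and was higher by less than 2-fold on 5d in PPARγ/+ cells (0.74 ± 0.16, adjusted p = 0.00791), and Des was not called in WT cells (1.249 ± 0.55, adjusted p = 0.122) unless WT_5d replicate 3 was left out (1.90, adjusted p = 0.00366). The WT groups of Myod1 overlapped (1.31 ± 0.47, adjusted p = 0.0708), and its call held in 2 of 6 fits with 1 library left out. Those fits gave 4.71 to 6.37 for Myog in WT cells and 5.40 to 6.51 in PPARγ/+ cells. The 8 markers summed to 175, 306 and 134 FPKM in WT_0d, 3946, 2959.5 and 925 in WT_5d, 60.9, 69.6 and 95.9 in PPARγ/+_0d, and 979, 1124 and 1152 in PPARγ/+_5d, with Acta1 the most abundant. All 8 were at or above 1 FPKM in every 5d library.

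A pair of WT libraries stood apart from their groups. WT_5d replicate 3 had the lowest muscle marker sum of the WT_5d libraries and was the lowest of the 3 in 19 of the 30 tested members (63.3%), against 30.6% of all genes tested. WT_0d replicate 2 had the highest sum of the WT_0d libraries and was the highest of the 3 in 20 of the 30 (66.7%), against 26.2% of all genes. Members whose call changed without 1 library are given with the value without it. The part of these libraries' muscle marker levels in the members' values was not tested.

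**Figure D1:**
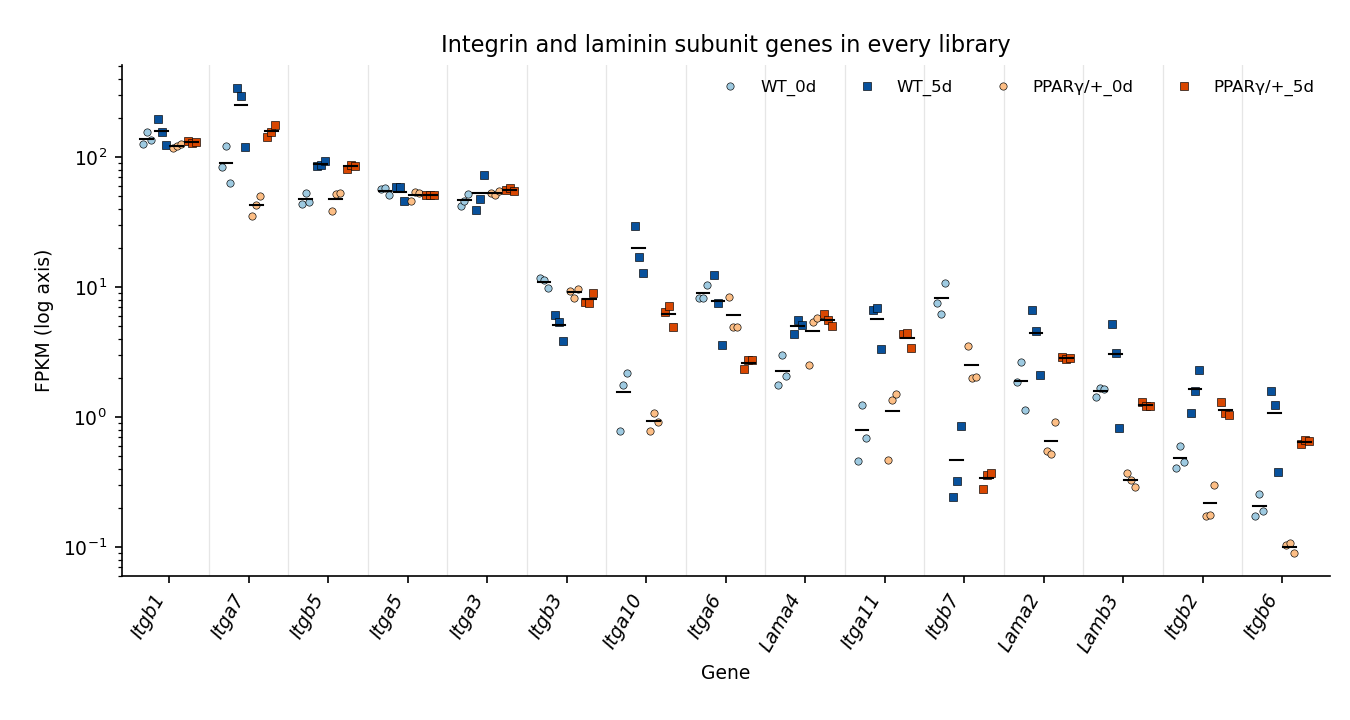
Levels of 15 integrin and laminin subunit genes, in FPKM on a log axis, with 1 point per library, colour and shape giving the group and a bar the group mean of 3 libraries. Itga7 and Itga10 points lie higher on 5d than on 0d in PPARγ/+ cells without overlap, and Itgb7 points lie lower on 5d than on 0d in both cell types without overlap.

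The levels of the members spanned the range from abundant transcripts to 0. Itgb1 and Itga7 had the highest mean over the 12 libraries, 138 and 136 FPKM, and their single libraries overlapped (117 to 196 FPKM for Itgb1 and 35.0 to 341 for Itga7), so their order does not hold beyond the spread. Itgb5, Itga5, Itga3 and Lamb2 followed with means of 67.4, 52.9, 52.2 and 50.6 FPKM and overlapping ranges, and after them Lamc1, Lama5, Lamb1 and Itgav with 31.6, 24.7, 23.6 and 14.1 FPKM. Of the 37 members 14 measured at least 1 FPKM in every library. Itga2, Itga9, Itgam and Itgax had at most 3 fragments in any library. Summed over all alpha subunits the level was 159 to 183 FPKM in PPARγ/+_0d, 197 to 254 in WT_0d, 283 to 312 in PPARγ/+_5d and 273 to 507 in WT_5d. The sum over the laminin chains kept to 126 to 158 FPKM in all 12 libraries.

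From 0d to 5d in WT cells 11 of the 30 tested members were called. Itga1, Itga4, Itga7, Itga8, Itga10, Itga11, Itgb2, Itgb6 and Lama4 rose (9 members, against 8.94% of all genes), and Itgb3 and Itgb7 fell (2 members, against 7.53% of all genes). In PPARγ/+ cells Itga1, Itga7, Itga8, Itga10, Itga11, Itgb2, Itgb6, Lama2 and Lamb3 rose (9 members, against 9.11% of all genes), and Itga6 and Itgb7 fell (2 members, against 6.06% of all genes). The cell types share no library in these comparisons, and 7 of the 30 members (23.3%) rose in both, against 5.94% of all genes. These 7 are 77.8% of the 9 that rose in each cell type, while over all genes 66.4% of those that rose in WT cells and 65.2% of those that rose in PPARγ/+ cells did so in both. They were the collagen receptors Itga1, Itga10 and Itga11, the laminin receptor Itga7, Itga8, and the beta subunits Itgb2 and Itgb6. Only Itgb7 fell in both (1 of 30, against 4.22% of all genes). With 1 added to the FPKM in place of 0.1, fewer members were called in both cell types, as given at the end. Of 20 called fold changes of members named in full (over time or on 0d), 10 then kept only their direction. Without the 2-fold limit, 15 of the 30 members had an unadjusted p of at most 0.05 in WT cells (against 46.8% of all genes) and 17 in PPARγ/+ cells (against 54.4% of all genes), near the share of all genes.

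The median log2 fold change over the 30 tested members was 0.20 in WT cells, where it was -0.08 over all genes, and 0.36 in PPARγ/+ cells, where it was -0.10 over all genes. Both were the same with Itga8, at its floor on 0d, set to the bounds given below. With Itgad in WT cells and Itga4 in PPARγ/+ cells also set to a ratio against 3 fragments, where 5d libraries too had 3 fragments or fewer, the medians were 0.17 and 0.43. With 3 of the 30 admitted by the filter through 5d libraries alone, these counts and medians are a description. Scaling the libraries by their median ratio moved the median of all genes by more than 0.1, to 0.02 in both cell types, and in WT cells this ended the call of Itgb3 and added Itgb5 and Lama2. The 3 smooth muscle markers (Myh11, Cnn1 and Acta2) summed to 453 to 523 FPKM in WT_0d, 1048 to 1291 in WT_5d, 453 to 601 in PPARγ/+_0d and 781 to 947 in PPARγ/+_5d, with Acta2 alone at or above 1 FPKM. Acta2 rose in WT cells (1.22 ± 0.14, adjusted p = 0.00149) and was higher on 5d by less than 2-fold in PPARγ/+ cells (0.75 ± 0.13, adjusted p = 0.00367), and Cnn1 fell in both (-1.94 ± 0.39 and -2.10 ± 0.24). Their part in the members' changes was not tested. In bulk RNA, fewer cells of a type and less RNA per cell cannot be told apart.

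**Figure D2:**
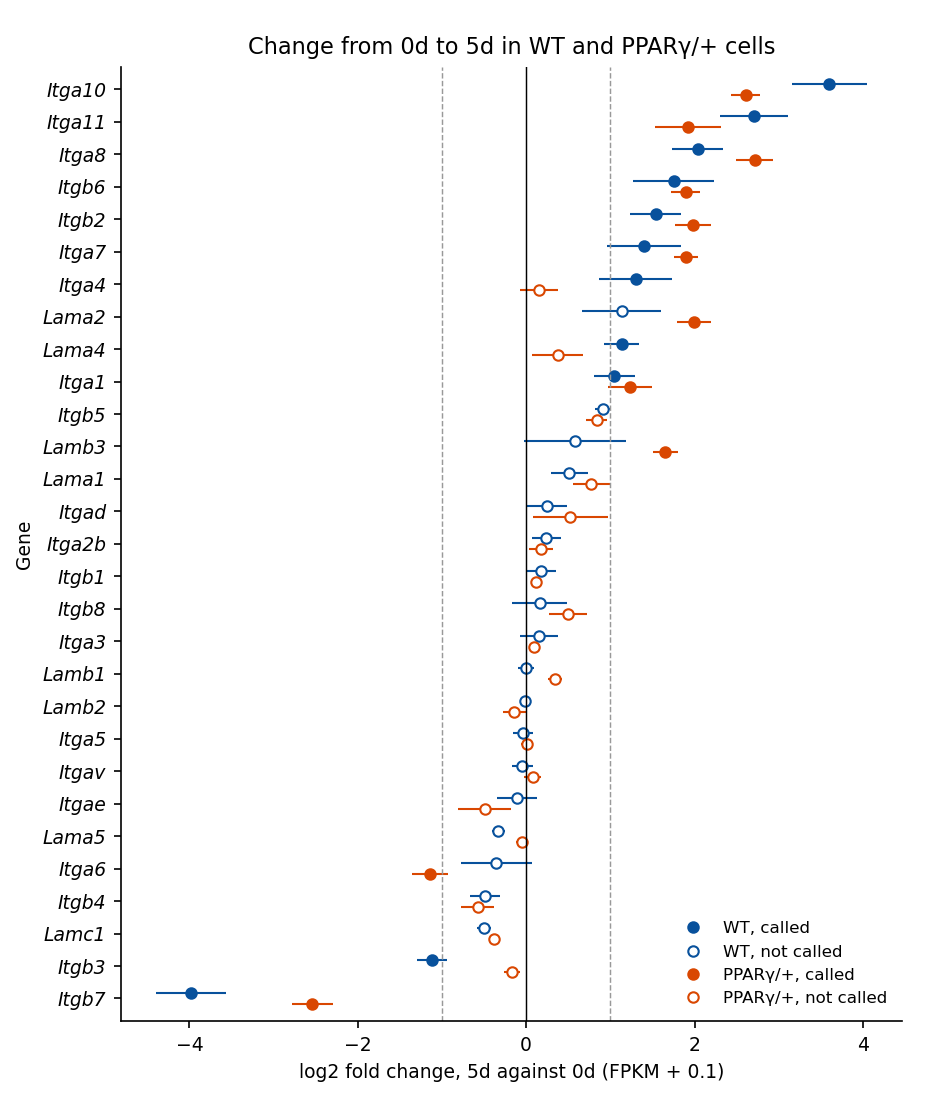
Change of 29 tested members from 0d to 5d, as the log2 fold change of FPKM + 0.1 with its standard error (bars), in WT (blue) and PPARγ/+ (orange) cells, filled where called and with dashed lines at 2-fold. Itga10 lies furthest to the right and Itgb7 furthest to the left in WT cells, at 3.60 and -3.98.

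Itga7 encodes the laminin-binding alpha subunit of skeletal muscle (ENSMUSG00000025348, chromosome 10, 128933818 to 128958282, plus strand). It measured 84.4, 122 and 63.6 FPKM in WT_0d, 341, 295 and 119 in WT_5d, 35.0, 42.6 and 50.7 in PPARγ/+_0d, and 143, 156 and 177 in PPARγ/+_5d. In PPARγ/+ cells every 5d library was above every 0d library, whereas in WT cells the lowest 5d library, replicate 3, was just under the highest 0d library, replicate 2. Itga7 rose in WT cells by 1.40 ± 0.44 (adjusted p = 0.0465) and in PPARγ/+ cells by 1.90 ± 0.14 (adjusted p = 0.000123). The WT call ended when WT_0d replicate 1 or 3 or WT_5d replicate 1 or 2 was left out, with values of 1.38, 1.18, 1.11 and 1.22. Without WT_5d replicate 3 it was 1.87 ± 0.28 (adjusted p = 0.00659). Of the summed alpha subunit level Itga7 made up 22.0 to 27.7% in PPARγ/+_0d, 32.3 to 47.9% in WT_0d, 43.7 to 67.3% in WT_5d and 50.5 to 56.8% in PPARγ/+_5d.

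Itga3 encodes a laminin receptor best known from epithelia and the kidney filter (ENSMUSG00000001507, chromosome 11, 95044474 to 95076801, minus strand). It measured 42.0, 45.9 and 51.9 FPKM in WT_0d, 39.6, 47.5 and 73.0 in WT_5d, 52.8, 51.0 and 54.7 in PPARγ/+_0d, and 55.6, 57.7 and 55.4 in PPARγ/+_5d. The groups overlapped in WT cells, where 5d replicate 3 was the highest of all libraries, and in PPARγ/+ cells the 5d libraries lay slightly above the 0d libraries. The change was 0.15 ± 0.23 in WT cells (95% confidence interval -0.39 to 0.70, adjusted p = 0.634). In PPARγ/+ cells it was 0.09 ± 0.05 (-0.03 to 0.21, adjusted p = 0.172), so that a 2-fold change lay outside both intervals.

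Itga6, whose product pairs with the products of Itgb1 or Itgb4 in laminin receptors (ENSMUSG00000027111, chromosome 2, 71745616 to 71858416, plus strand), measured 8.28, 8.21 and 10.5 FPKM in WT_0d, 12.4, 7.57 and 3.60 in WT_5d, 8.35, 4.90 and 4.95 in PPARγ/+_0d, and 2.35, 2.73 and 2.76 in PPARγ/+_5d. In PPARγ/+ cells all 5d libraries were below all 0d libraries, and in WT cells the 5d libraries reached both above and below those of 0d. Itga6 fell, by a log2 fold change of -1.14 ± 0.21 in PPARγ/+ cells (adjusted p = 0.00458), and without PPARγ/+_0d replicate 1, the highest library of its group, the value was -0.89, under 2-fold. In WT cells the change was -0.35 ± 0.42 (-1.36 to 0.66, adjusted p = 0.548). The interaction was -0.79 ± 0.50 (adjusted p = 0.592), so the cell types were not shown to differ in it.

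**Figure D3:**
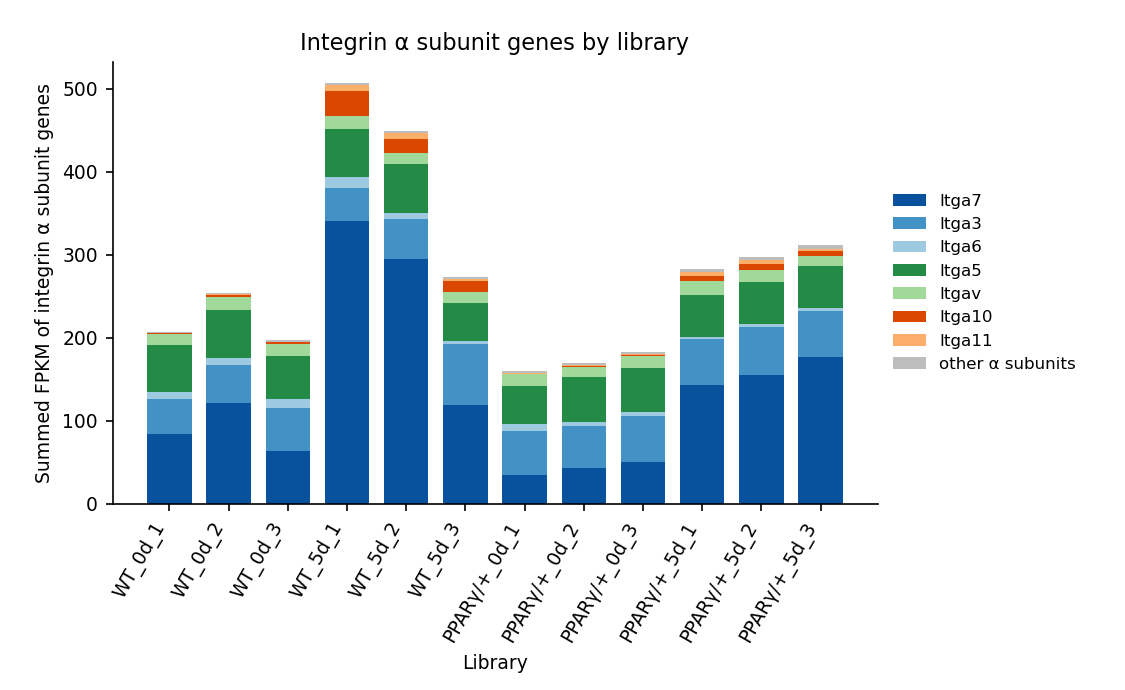
Summed FPKM of the integrin alpha subunit genes in each of the 12 libraries, with the height of each block giving the level of the named gene. Itga7 is the largest block in each WT library, and in the PPARγ/+_0d libraries Itga3 and Itga5 are each taller than Itga7.

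Itgb1 encodes the beta subunit shared by most matrix-binding integrins, the partner of the Itga7, Itga3, Itga5 and collagen-binding subunits (ENSMUSG00000025809, chromosome 8, 128685654 to 128733200, plus strand). It measured 126, 156 and 135 FPKM in WT_0d, 196, 157 and 124 in WT_5d, 117, 121 and 127 in PPARγ/+_0d, and 134, 129.9 and 132 in PPARγ/+_5d. The WT groups overlapped, while the PPARγ/+_5d libraries lay a little above those of PPARγ/+_0d. Neither change passed the test, with 0.17 ± 0.18 in WT cells (-0.26 to 0.61, adjusted p = 0.493) and 0.12 ± 0.05 in PPARγ/+ cells (-0.01 to 0.25, adjusted p = 0.121). Itgb1 made up 54.7 to 69.0% of the summed beta subunit level.

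Itga5 encodes the alpha subunit of the classical fibronectin receptor (ENSMUSG00000000555, chromosome 15, 103344286 to 103366763, minus strand). It measured 57.0, 57.7 and 51.5 FPKM in WT_0d, 58.6, 58.7 and 45.8 in WT_5d, 46.0, 53.9 and 52.8 in PPARγ/+_0d, and 50.8, 51.4 and 50.8 in PPARγ/+_5d. The groups overlapped in every comparison, and the lowest value was that of WT_5d replicate 3. The change was -0.03 ± 0.12 in WT cells (-0.32 to 0.25, adjusted p = 0.847) and 0.01 ± 0.07 in PPARγ/+ cells (-0.16 to 0.17, adjusted p = 0.952).

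The other subunits that bind the Arg-Gly-Asp motif were lower. Itgav, the partner of several beta subunits in receptors for vitronectin and fibronectin, lay between 12.4 and 16.0 FPKM, with changes of -0.05 ± 0.12 in WT and 0.08 ± 0.10 in PPARγ/+ cells. Itga2b, the platelet fibrinogen receptor subunit, lay between 1.003 and 1.67 FPKM, with changes of 0.24 ± 0.17 and 0.17 ± 0.14. Itga8, a receptor subunit for nephronectin and fibronectin (ENSMUSG00000026768, chromosome 2, 12106632 to 12301922, minus strand), was at the floor on 0d, with 0, 3 and 0 fragments in WT_0d and 1, 2 and 2 in PPARγ/+_0d. On 5d it measured 0.362, 0.471 and 0.203 FPKM in WT cells and 0.772, 0.593 and 0.511 FPKM in PPARγ/+ cells. Against a floor of 3 fragments in each 0d library, it was at least 18.9-fold higher on 5d in WT cells and at least 36.8-fold higher in PPARγ/+ cells. The limma fits with 0.1 added gave 2.03 ± 0.30 in WT (adjusted p = 0.00321) and 2.71 ± 0.22 in PPARγ/+ cells (adjusted p = 0.000152). Since the filter admitted Itga8 through 5d libraries alone, these values are a description. Itga8 shares 372 exonic bases with a gene on the other strand, E030013I19Rik, and whether reads were assigned by strand is not stated.

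Besides Itgb1, the genes Itgb3, Itgb5, Itgb6 and Itgb8 encode beta subunits that join the Itgav product, and of these 4 Itgb5 had the highest level. Itgb5, a vitronectin receptor subunit (ENSMUSG00000022817, chromosome 16, 33829665 to 33949338, plus strand), measured 43.7, 52.9 and 45.4 FPKM in WT_0d, 85.6, 87.2 and 94.3 in WT_5d, 38.6, 52.4 and 53.2 in PPARγ/+_0d, and 81.4, 87.9 and 86.1 in PPARγ/+_5d. On 5d every library was above every 0d library in both cell types. The difference was 0.91 ± 0.10 in WT cells (adjusted p = 0.000989) and 0.84 ± 0.13 in PPARγ/+ cells (adjusted p = 0.00183), just under the 2-fold limit. With median-ratio scaling the WT value was 1.04, past that limit.

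Itgb3, the beta subunit of the vitronectin receptor of osteoclasts and of the platelet fibrinogen receptor (ENSMUSG00000020689, chromosome 11, 104608000 to 104670476, plus strand), measured 11.8, 11.3 and 9.91 FPKM in WT_0d, 6.07, 5.35 and 3.88 in WT_5d, 9.31, 8.27 and 9.73 in PPARγ/+_0d, and 7.67, 7.57 and 9.04 in PPARγ/+_5d. All WT_5d libraries were below all WT_0d libraries, while the PPARγ/+ groups overlapped. Itgb3 fell in WT cells, by a log2 fold change of -1.12 ± 0.18 (adjusted p = 0.00416). Without WT_5d replicate 3 the value was -0.94, under 2-fold, and median-ratio scaling also ended the call. In PPARγ/+ cells the change was -0.17 ± 0.10 (-0.40 to 0.06, adjusted p = 0.196).

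Itgb6 and Itgb8 encode subunits known for activating latent TGF-β. Itgb6 (ENSMUSG00000026971, chromosome 2, 60598292 to 60722643, minus strand) measured 0.174, 0.256 and 0.188 FPKM in WT_0d, 1.58, 1.24 and 0.377 in WT_5d, 0.104, 0.108 and 0.0902 in PPARγ/+_0d, and 0.617, 0.667 and 0.651 in PPARγ/+_5d. The 5d libraries lay above the 0d libraries in both cell types, with WT_5d replicate 3 the lowest of the 5d libraries. Itgb6 rose by 1.75 ± 0.48 in WT cells (adjusted p = 0.0314), by 2.30 without WT_5d replicate 3, and by 1.89 ± 0.17 in PPARγ/+ cells (adjusted p = 0.000246). Itgb8 lay between 0.0798 and 0.724 FPKM, with changes of 0.16 ± 0.33 in WT and 0.50 ± 0.23 in PPARγ/+ cells, neither of them called.

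The collagen-binding alpha subunits had low levels on 0d, and 3 of the 4 rose. Their sum was 1.40 to 3.23 FPKM in WT_0d, 16.7 to 36.9 in WT_5d, 1.49 to 2.94 in PPARγ/+_0d and 9.21 to 12.5 in PPARγ/+_5d. Itga10, a collagen receptor subunit best known from cartilage (ENSMUSG00000090210, chromosome 3, 96645584 to 96664519, plus strand), measured 0.775, 1.77 and 2.17 FPKM in WT_0d, 29.8, 17.1 and 12.8 in WT_5d, 0.782, 1.08 and 0.918 in PPARγ/+_0d, and 6.41, 7.21 and 4.93 in PPARγ/+_5d. Every 5d library exceeded every 0d library of its cell type, and the WT_5d libraries exceeded those of PPARγ/+_5d. It rose by 3.60 ± 0.44 in WT cells (adjusted p = 0.00172), a 12.1-fold change, and by 2.61 ± 0.18 in PPARγ/+ cells (adjusted p = 8.04e-05), a 6.09-fold change. Exons of Itga10 share 1739 bases with Gm42957 on the same strand, and reads from the shared stretch cannot be told apart.

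Itga11, a receptor subunit for fibrillar collagen on fibroblasts and other mesenchymal cells (ENSMUSG00000032243, chromosome 9, 62677826 to 62783982, plus strand), measured 0.462, 1.23 and 0.690 FPKM in WT_0d, 6.67, 6.89 and 3.35 in WT_5d, 0.463, 1.35 and 1.51 in PPARγ/+_0d, and 4.39, 4.47 and 3.38 in PPARγ/+_5d. The days did not overlap in either cell type, and WT_5d replicate 3 was the lowest 5d library. It rose by 2.70 ± 0.40 in WT cells (adjusted p = 0.00347) and by 1.92 ± 0.40 in PPARγ/+ cells (adjusted p = 0.00705).

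Itga1, a receptor subunit for collagen IV of basement membranes (ENSMUSG00000042284, chromosome 13, 114953096 to 115101964, minus strand), ran from 0.144 to 0.232 FPKM in WT_0d, 0.420 to 0.594 in WT_5d, 0.240 to 0.513 in PPARγ/+_0d and 0.824 to 1.15 in PPARγ/+_5d. It rose by 1.05 ± 0.24 in WT cells (adjusted p = 0.0159) and by 1.23 ± 0.26 in PPARγ/+ cells (adjusted p = 0.00803). Without WT_0d replicate 3 or WT_5d replicate 3 the WT value was 0.96 or 0.91, under 2-fold. Its exons share 685 bases with Gm49395 on the same strand. Itga2, a collagen receptor subunit of platelets and epithelia, had at most 2 fragments in any library.

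Of the remaining alpha subunits none reached 2 FPKM. Itga4, a receptor subunit for VCAM-1 and fibronectin (ENSMUSG00000027009, chromosome 2, 79255426 to 79333123, plus strand), measured 0.0148, 0.0993 and 0.0340 FPKM in WT_0d, 0.441, 0.323 and 0.101 in WT_5d, 0.00586, 0.00823 and 0.00983 in PPARγ/+_0d, and 0.0241, 0.00665 and 0.0308 in PPARγ/+_5d. It was at most 0.0993 FPKM in every library outside WT_5d, and within WT_5d replicate 3 was the lowest. It rose by 1.30 ± 0.44 in WT cells, called by its unadjusted p while the adjusted p was 0.0582. Since the filter admitted Itga4 through WT_5d libraries alone, this rise is a description. The call ended without WT_0d replicate 1 or 3 or WT_5d replicate 1 or 2 (1.13, 1.24, 1.003 and 1.18). In PPARγ/+ cells the 0d libraries had 2, 3 and 3 fragments, the 5d libraries 7, 2 and 8, and the groups overlapped, with a change of 0.15 ± 0.23 (adjusted p = 0.619). Itga4 shares 1124 exonic bases with Cerkl on the other strand. Itga9, a related subunit, had at most 2 fragments in any library.

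The alpha and beta subunits of leukocyte integrins differed in level. Itgb7, which pairs with the Itga4 and Itgae products in receptors that bring lymphocytes to the gut (ENSMUSG00000001281, chromosome 15, 102215995 to 102231944, minus strand), measured 7.61, 6.24 and 10.8 FPKM in WT_0d, 0.243, 0.321 and 0.848 in WT_5d, 3.51, 1.999 and 2.04 in PPARγ/+_0d, and 0.281, 0.356 and 0.373 in PPARγ/+_5d. All 5d libraries were below all 0d libraries in both cell types, and on 0d the WT libraries were above those of PPARγ/+. Itgb7 fell, by a log2 fold change of -3.98 ± 0.41 in WT cells (adjusted p = 0.000974), a 15.7-fold change, and by -2.54 ± 0.24 in PPARγ/+ cells (adjusted p = 0.000295), a 5.82-fold change. The named alpha partners of its product were lower on 0d: Itga4 reached 0.0993 FPKM at most in WT_0d and Itgae 0.207 FPKM.

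Itgb2, the common beta subunit of leukocyte adhesion receptors (ENSMUSG00000000290, chromosome 10, 77530252 to 77565708, plus strand), measured 0.405, 0.598 and 0.453 FPKM in WT_0d, 1.07, 1.60 and 2.30 in WT_5d, 0.175, 0.176 and 0.3001 in PPARγ/+_0d, and 1.30, 1.07 and 1.04 in PPARγ/+_5d. The 5d libraries were above the 0d libraries in both cell types, with WT_5d replicate 3 the highest library. It rose by 1.54 ± 0.30 in WT cells (adjusted p = 0.00924) and by 1.98 ± 0.22 in PPARγ/+ cells (adjusted p = 0.000476). The alpha partners of its product, encoded by Itgal, Itgam, Itgax and Itgad, stayed under 2 FPKM. Itgal lay between 0.00604 and 0.0819 FPKM, Itgam had at most 3 fragments in any library and Itgax at most 2. The 6 leukocyte markers (Ptprc, Csf1r, Adgre1, Cd3e, Spi1 and Tyrobp) summed to 0.0450 to 0.123 FPKM over the 12 libraries, none reached 1 FPKM, and Csf1r was the most abundant.

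Itgad, a leukocyte subunit that pairs with the Itgb2 product (ENSMUSG00000070369, chromosome 7, 128154376 to 128223816, plus strand), was seen mainly in PPARγ/+ cells. It measured 0.0229, 0.00879 and 0 FPKM in WT_0d, 0.0522, 0.0230 and 0.0195 in WT_5d, 0.736, 0.315 and 0.792 in PPARγ/+_0d, and 0.577, 0.681 and 1.65 in PPARγ/+_5d. With at most 2 fragments in each WT_0d library and 2 to 6 in WT_5d, every PPARγ/+ library was above every WT library. Between the days the change was 0.53 ± 0.45 in PPARγ/+ cells (adjusted p = 0.378), and replicate 3 of PPARγ/+_5d was the highest. Its exons share 388 bases with 4931431B13Rik, 70 with Cox6a2 and 102 with Gm39091 on the other strand, and 330 with Gm17831 on the same strand. The adipocyte markers moved with the cell type in the same way: the 6 genes (Adipoq, Fabp4, Plin1, Cidec, Lep and Cfd) summed to 0.0345 to 0.0794 FPKM in the 6 WT libraries, 5.04, 2.90 and 4.18 in PPARγ/+_0d, and 13.3, 20.03 and 67.2 in PPARγ/+_5d. Adipoq was the most abundant, Lep was at 0 throughout, and 5 of the 6 genes were at or above 1 FPKM in PPARγ/+_5d replicate 3. Their part in the Itgad values was not tested.

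Itgae, which pairs with the Itgb7 product and binds E-cadherin, lay between 0.0470 and 0.224 FPKM, with changes of -0.11 ± 0.24 in WT and -0.49 ± 0.32 in PPARγ/+ cells. Itgb4, the hemidesmosome subunit of epithelia, lay between 0.392 and 0.794 FPKM. Its 5d libraries were below those of 0d in both cell types, with differences of -0.49 ± 0.18 in WT (adjusted p = 0.0763) and -0.57 ± 0.20 in PPARγ/+ cells (adjusted p = 0.0499), under 2-fold.

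Among the laminin alpha chains Lama5, the most widespread of them in adult basement membranes, had the highest level in every library. Lama5 (ENSMUSG00000015647, chromosome 2, 180176373 to 180225859, minus strand) measured 32.8, 35.2 and 31.5 FPKM in WT_0d, 27.2, 26.2 and 25.6 in WT_5d, 18.7, 19.4 and 22.0 in PPARγ/+_0d, and 18.9, 19.4 and 19.8 in PPARγ/+_5d. Its WT_5d libraries were below those of WT_0d, with a difference of -0.33 ± 0.07 (adjusted p = 0.0135), and its PPARγ/+ groups overlapped, with -0.05 ± 0.07 (adjusted p = 0.633). Lama5 made up 85.7, 76.6 and 76.4% of the laminin alpha sum in PPARγ/+_0d and 67.1 to 71.3% in PPARγ/+_5d, and 86.0 to 90.6% in WT_0d against 70.8 to 77.7% in WT_5d.

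Lama2, the alpha chain of the laminin around mature muscle fibres (ENSMUSG00000019899, chromosome 10, 26980036 to 27619758, minus strand), measured 1.87, 2.65 and 1.13 FPKM in WT_0d, 6.69, 4.58 and 2.12 in WT_5d, 0.547, 0.519 and 0.908 in PPARγ/+_0d, and 2.91, 2.78 and 2.85 in PPARγ/+_5d. In PPARγ/+ cells the days did not overlap and the 5d libraries lay close together, and in WT cells 5d replicate 3 was under the highest 0d library, replicate 2. Lama2 rose in PPARγ/+ cells by 1.99 ± 0.20 (adjusted p = 0.000372). In WT cells the change was 1.13 ± 0.47 (-0.00104 to 2.27, adjusted p = 0.107), not called. It was called without WT_0d replicate 2, at 1.41, and without WT_5d replicate 3, at 1.58. The interaction was 0.86 ± 0.55 (adjusted p = 0.591).

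Lama4, a laminin chain best known from blood vessels, nerve and muscle (ENSMUSG00000019846, chromosome 10, 38965515 to 39110188, plus strand), measured 1.78, 2.98 and 2.08 FPKM in WT_0d, 4.39, 5.57 and 5.13 in WT_5d, 2.50, 5.36 and 5.81 in PPARγ/+_0d, and 6.21, 5.56 and 5.00 in PPARγ/+_5d. In WT cells all 5d libraries were above all 0d libraries, and in PPARγ/+ cells the days overlapped, with 0d replicate 1 well below the other PPARγ/+ libraries. Lama4 rose by 1.13 ± 0.21 in WT cells (adjusted p = 0.00707), and without WT_0d replicate 1 the value was 0.98, under 2-fold. In PPARγ/+ cells the change was 0.37 ± 0.31 (-0.36 to 1.10, adjusted p = 0.361), and the interaction was -0.76 ± 0.40 (adjusted p = 0.488). The 6 endothelial markers (Pecam1, Cdh5, Kdr, Tek, Tie1 and Emcn) summed to at most 0.233 FPKM in any library, with Tek the most abundant and Tie1 at 0.

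Lama1, a chain of embryonic basement membranes, lay between 0.00962 and 0.122 FPKM, from 2 to 28 fragments. Its 5d libraries were above those of 0d in both cell types, with differences of 0.51 ± 0.22 in WT (adjusted p = 0.113) and 0.78 ± 0.22 in PPARγ/+ cells (adjusted p = 0.0274), neither reaching 2-fold with 0.1 added to the FPKM. Since the filter admitted Lama1 through 5d libraries alone, these values are a description. Lama3, the alpha chain of the epidermal laminin, lay between 0.0241 and 0.134 FPKM.

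The beta and gamma chains found in most laminins held their levels within 2-fold. Lamb1 lay between 16.6 and 29.2 FPKM, with changes of -0.00115 ± 0.10 in WT and 0.34 ± 0.09 in PPARγ/+ cells (adjusted p = 0.0173). Lamb2, the beta chain enriched at the neuromuscular junction, lay between 42.2 and 69.3 FPKM, with changes of -0.01 ± 0.07 and -0.14 ± 0.14. Lamc1, the gamma chain of most laminins, measured 38.3, 38.4 and 35.9 FPKM in WT_0d, 28.2, 27.3 and 24.1 in WT_5d, 36.0, 33.3 and 36.5 in PPARγ/+_0d, and 27.9, 26.0 and 27.1 in PPARγ/+_5d. Its 5d libraries were below those of 0d in both cell types, with differences of -0.50 ± 0.08 in WT (adjusted p = 0.00486) and -0.38 ± 0.06 in PPARγ/+ cells (adjusted p = 0.00169). Lamc3, a rare gamma chain, measured 0.00846, 0.0456 and 0.0213 FPKM in WT_0d and 0.142, 0.179 and 0.0505 in WT_5d, without overlap. In PPARγ/+ cells it was at most 0.0840 FPKM, with no more than 1 fragment in any PPARγ/+_0d library. Against a floor of 3 fragments in each of those libraries, its 5d level in PPARγ/+ cells was at least 3.09-fold higher.

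Lamb3 encodes the beta chain of the epidermal laminin (ENSMUSG00000026639, chromosome 1, 193207699 to 193343878, plus strand). It measured 1.42, 1.67 and 1.65 FPKM in WT_0d, 5.18, 3.13 and 0.817 in WT_5d, 0.372, 0.325 and 0.291 in PPARγ/+_0d, and 1.31, 1.22 and 1.22 in PPARγ/+_5d. The PPARγ/+_0d libraries were below all others, and the WT_5d libraries ran from below to above those of WT_0d, with replicate 3 the lowest. Lamb3 rose in PPARγ/+ cells by 1.65 ± 0.15 (adjusted p = 0.000250). In WT cells the change was 0.58 ± 0.61 (-0.89 to 2.04, adjusted p = 0.496), and without WT_5d replicate 3 it was 1.30 and called. Of the 4 epithelial markers (Epcam, Cdh1, Krt5 and Krt14) only Krt14 reached 1 FPKM, and their sum was 18.7, 15.4 and 22.5 FPKM in WT_0d, 7.05, 6.99 and 6.77 in WT_5d, 36.9, 30.6 and 19.4 in PPARγ/+_0d, and 9.35, 10.1 and 9.03 in PPARγ/+_5d. Their part in the Lamb3 values was not tested.

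PPARγ/+ cells were compared with WT cells on 0d. Of the 30 tested members 4 were lower in PPARγ/+ cells (against 1.23% of all genes), among them Lamb3, Itgb7 and Itgb8, and Itgad, which passed the filter through PPARγ/+ libraries alone, was higher (1 member, against 0.361% of all genes). Lamb3 differed by -1.97 ± 0.16 (adjusted p = 0.00843), a 3.92-fold difference. Itgb7 differed by -1.68 ± 0.29 (adjusted p = 0.0395) and Itgb8 by -1.24 ± 0.19 (adjusted p = 0.0312). Itgad was at least 20.6-fold higher in PPARγ/+ cells against a floor of 3 fragments in each WT_0d library. Its limma fit with 0.1 added gave 2.62 ± 0.33 (adjusted p = 0.0215), a description, since the filter built in a difference between the cell types. In each of these genes the 3 PPARγ/+_0d libraries lay on 1 side of the 3 WT_0d libraries. At an unadjusted p of at most 0.05 there were 16 of the 30 (against 21.7% of all genes).

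The median difference on 0d over the 30 members was -0.23, and 0.02 over all genes. Lama5 was lower in PPARγ/+ cells by less than 2-fold (-0.73 ± 0.08, adjusted p = 0.0156). Itga7 differed by -1.03 ± 0.26 without passing the adjusted p (adjusted p = 0.0882), and Lama2 by -1.35 ± 0.35 (adjusted p = 0.0987), with all PPARγ/+ libraries below all WT libraries in both genes. These comparisons share the WT_0d and PPARγ/+_0d libraries with the changes over time. Each of the 6 libraries was left out in turn. Most of the calls were lost in most of these fits, with a library of either group left out, while the differences kept their direction. The share of all genes called without each library is not given here, so the calls in these fits describe the members alone. Lamb3 was called in all 6 of these fits (-2.04 to -1.90), Itgb7 in 1 (-1.94 to -1.47), Itgad in 1 and Itgb8 in 0 (-1.36 to -1.15). The muscle markers Myf5 and Des were also lower in PPARγ/+ cells on 0d. Myf5 differed by -1.58 ± 0.09 (adjusted p = 0.00486, called in 6 of 6 fits with 1 library left out) and had an interaction of 2.20 ± 0.27 (adjusted p = 0.00844, called in 12 of 12). Des differed by -1.41 ± 0.21 (adjusted p = 0.0290, called in 0 of 6, with adjusted p from 0.0514 to 0.121). The part of these markers in the members' differences was not tested.

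On 5d no tested member was called between the cell types by limma (0 of 30, against 0.155% of all genes), and 10 of the 30 had an unadjusted p of at most 0.05 (against 12.7% of all genes). The largest fitted differences were those of Itgad, 2.90 ± 0.39 (adjusted p = 0.0786), Itga10, -1.60 ± 0.32 (adjusted p = 0.146), Itga4, -1.58 ± 0.40 (adjusted p = 0.219), and Itga6, -1.39 ± 0.43 (adjusted p = 0.294), and in these 4 genes the groups did not overlap. Itga7 differed by -0.54 ± 0.40, with an interval of -1.52 to 0.45, and Lama2 by -0.49 ± 0.40, with an interval of -1.46 to 0.48. The count rested on 1 library. Without WT_5d replicate 3, 7 members were called (against 4.01% of all genes): Itga4 (-1.99), Itga10 (-1.87), Itga6 (-1.85), Lamb3 (-1.62), Itgb6 (-1.01) and Itga7 (-1.01) were lower in PPARγ/+ cells, and Itgad (2.83) was higher. Of these 7, Itga4 and Itgad passed the filter through the higher group alone and are a description. Muscle markers moved with these values: the sum was 3946 and 2959.5 FPKM in the other WT_5d libraries and 979 to 1152 in PPARγ/+_5d, and its part in the members' differences was not tested. The median difference over the 30 members was -0.10, and 0.02 over all genes.

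The interaction asked whether the change over time differed between the cell types. No tested member was called by limma (0 of 30, against 0.76% of all genes), and 6 of the 30 had an unadjusted p of at most 0.05 (against 12.01% of all genes). Itgb3 came nearest, at 0.95 ± 0.21 (adjusted p = 0.0759), with its fall in WT cells and a smaller change in PPARγ/+ cells. Without WT_5d replicate 3, 2 members were called (against 2.92% of all genes), Itgb3 at 0.77 and Itgb7 at 1.88, and without WT_5d replicate 1 only Itgb3, at 1.08. With both WT libraries that stood apart left out, an alternative chosen after seeing the data, 2 members were called (against 2.71% of all genes), Itgb7 and Itga4, the latter admitted by the filter through WT_5d libraries alone. The median interaction was 0.13 over the 30 members and -0.01 over all genes. For Itga10 the interaction was -0.99 ± 0.51 (-2.11 to 0.12), for Itga7 0.50 ± 0.49 (-0.58 to 1.58) and for Lamb3 1.08 ± 0.66 (-0.38 to 2.54). Members called in 1 cell type and not in the other were therefore not shown to differ between the cell types with all libraries in the fit.

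Genes whose products work with integrins and laminins were taken as 3 lists. Of the 36 cytoplasmic proteins that bind integrins or build focal adhesions 33 were tested. With the 2-fold limit, 1 rose and 1 fell in WT cells (against 8.94% and 7.53% of all genes), and 2 rose and 0 fell in PPARγ/+ cells (against 9.11% and 6.06%). An unadjusted limma p of at most 0.05 was reached by 18 of the 33 in WT cells (against 46.8% of all genes) and 25 in PPARγ/+ cells (against 54.4%). Their median changes were -0.05 (WT) and 0.01 (PPARγ/+). The rising gene in both cell types was Itgb1bp2, which encodes the muscle protein melusin that binds the tail of the Itgb1 product. It measured 0.544, 1.26 and 0.456 FPKM in WT_0d, 29.4, 21.4 and 8.47 in WT_5d, 0.410, 0.341 and 0.382 in PPARγ/+_0d, and 7.45, 8.30 and 8.26 in PPARγ/+_5d. The days did not overlap, and the rise was 4.48 ± 0.53 in WT (adjusted p = 0.00155) and 4.09 ± 0.11 in PPARγ/+ cells (adjusted p = 1.38e-05). Flna, an actin crosslinker that binds beta subunit tails, fell in WT cells, at -1.03 ± 0.08 (adjusted p = 0.000349), with 242 to 258 FPKM on 0d and 120.4 to 126 on 5d, a call that median-ratio scaling ended. In PPARγ/+ cells it was also lower on 5d without overlap, under 2-fold, at -0.79 ± 0.05 (adjusted p = 6.92e-05), with 187 to 198 FPKM on 0d and 112 to 113 on 5d. Zyx, the focal adhesion protein zyxin, rose in PPARγ/+ cells by 1.19 ± 0.06 (adjusted p = 3.96e-05), with 63.2 to 67.0 FPKM on 0d and 139 to 159 on 5d, and in WT cells was higher on 5d without overlap, under 2-fold, at 0.66 ± 0.15 (adjusted p = 0.0161), with 93.2 to 105 and 134 to 195 FPKM. Between the cell types limma called 0 of the 33 on 0d (against 0.361% of all genes higher and 1.23% lower). On 5d it also called 0 of the 33 (against 0.155% of all genes). At an unadjusted p of at most 0.05 were 15 on 0d (against 21.7% of all genes) and 5 on 5d (against 12.7%). Without WT_5d replicate 3, Itgb1bp2 was called lower in PPARγ/+ cells on 5d (-1.64, adjusted p = 0.00972), and Zyx (0.69, adjusted p = 0.00921) and Tns2, a tensin (0.55, adjusted p = 0.0346), had an interaction. Ilk, which encodes a core adhesion protein, measured 0.0559 to 0.189 FPKM. Its exons share 2106 bases with Taf10 and 355 with Rrp8, both on the other strand. Whether reads were assigned by strand is not stated, so these values may not give the level of Ilk.

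Of 19 partners of laminin in basement membranes 17 were tested. In WT cells 9 rose and 2 fell (against 8.94% and 7.53% of all genes), in PPARγ/+ cells 4 rose and 2 fell (against 9.11% and 6.06%), and the median changes were 1.02 and 0.81. At an unadjusted p of at most 0.05 were 16 in WT cells (against 46.8% of all genes) and 15 in PPARγ/+ cells (against 54.4%). Nid2, a nidogen that links laminin to collagen IV, measured 39.8, 71.4 and 43.3 FPKM in WT_0d, 197, 292 and 325 in WT_5d, 61.3, 60.6 and 89.4 in PPARγ/+_0d, and 315, 316 and 296 in PPARγ/+_5d. Its days did not overlap, and it rose by 2.41 ± 0.28 in WT (adjusted p = 0.00141) and 2.15 ± 0.15 in PPARγ/+ cells (adjusted p = 9.43e-05). Nid1, the other nidogen, measured 284, 186 and 166 FPKM in WT_0d, 55.7, 44.8 and 46.7 in WT_5d, 115, 146 and 139 in PPARγ/+_0d, and 55.8, 56.3 and 60.7 in PPARγ/+_5d. It fell without overlap, at -2.08 ± 0.21 (adjusted p = 0.000905) and -1.20 ± 0.10 (adjusted p = 0.000153). Col15a1, a basement membrane collagen of muscle, rose by 2.73 ± 0.77 in WT (adjusted p = 0.0338), where it reached 0.719 to 5.92 FPKM on 5d (2.04 to 3.48 with 1 library left out), and by 4.001 ± 0.29 in PPARγ/+ cells (adjusted p = 0.000109), where it reached 9.16 to 14.5. Ntn4, a netrin that binds laminin, rose by 1.82 ± 0.21 and 1.72 ± 0.07, Tinagl1, a matrix protein of basement membranes, fell, at -1.45 ± 0.34 and -2.15 ± 0.40, and Bcam, a receptor for laminins that contain the Lama5 chain, rose in WT cells by 1.87 ± 0.51 (adjusted p = 0.0290, and 1.58 to 2.46 with 1 library left out) and reached 0.96 ± 0.10 in PPARγ/+ cells, under 2-fold. Col18a1 alone was called on 0d (1 of 17, against 1.23% of all genes), lower in PPARγ/+ cells (-1.19 ± 0.17, adjusted p = 0.0249), in 0 of 6 fits with 1 library left out (adjusted p from 0.0527 to 0.0993). On 5d and for the interaction limma called 0 of the 17 (against 0.155% and 0.76% of all genes). At an unadjusted p of at most 0.05 were 5 (against 12.7% of all genes) and 4 (against 12.01%). When WT_5d replicate 3 was left out, Bcam was lower in PPARγ/+ cells on 5d (-1.42), and Bcam (-1.50, adjusted p = 0.0148) and Dag1, the laminin receptor dystroglycan (-0.48, adjusted p = 0.0397), had an interaction. Without PPARγ/+_0d replicate 3 Col4a1, a collagen IV chain, had one (0.60, adjusted p = 0.0355).

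Of 18 other ligands of integrins 16 were tested. In WT cells 8 rose and 0 fell (against 8.94% and 7.53% of all genes), and in PPARγ/+ cells 11 rose and 1 fell (against 9.11% and 6.06%), with 11 (against 46.8% of all genes) and 14 (against 54.4%) of the 16 at an unadjusted limma p of at most 0.05. The median changes were 1.09 and 1.31. Fn1, fibronectin, the ligand of the receptor made by Itga5 and Itgb1, measured 333, 433 and 313 FPKM in WT_0d, 1579, 1412 and 1388 in WT_5d, 151, 231 and 291 in PPARγ/+_0d, and 1200.2, 1095 and 1113 in PPARγ/+_5d. Every 5d library was above every 0d library, and it rose by 2.03 ± 0.17 in WT (adjusted p = 0.000456) and 2.39 ± 0.23 in PPARγ/+ cells (adjusted p = 0.000281). Postn, periostin, measured 2.03, 5.13 and 1.36 FPKM in WT_0d, 47.2, 24.7 and 15.8 in WT_5d, 0.155, 0.463 and 0.668 in PPARγ/+_0d, and 32.4, 28.0 and 31.8 in PPARγ/+_5d. It rose by 3.39 ± 0.57 in WT (adjusted p = 0.00526) and 6.001 ± 0.38 in PPARγ/+ cells (adjusted p = 6.36e-05), with an interaction of 2.61 ± 0.73 that did not pass (adjusted p = 0.160). Vcam1, the ligand of the Itga4 product on other cells, rose by 1.54 ± 0.38 and 2.32 ± 0.16, and Edil3, a ligand of integrins with the Itgav subunit, by 1.93 ± 0.15 and 1.54 ± 0.22. Npnt, nephronectin, the ligand of the Itga8 product, fell in PPARγ/+ cells, at -1.93 ± 0.20 (adjusted p = 0.000395), from 69.0 to 122 FPKM on 0d to 21.6 to 26.0 on 5d, while the WT groups overlapped (-0.08 ± 0.35, adjusted p = 0.890). Its interaction was -1.86 ± 0.43 (adjusted p = 0.0922), and -2.22 without WT_5d replicate 3 (adjusted p = 0.00939).

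In that list Spp1, Tnc and Ccn2 had lower levels on 0d in the cells that overexpress PPARγ (3 of 16, against 1.23% of all genes), and Spp1 and Ccn2 had an interaction (2 of 16, against 0.76%). Spp1, osteopontin, measured 717, 1001 and 993 FPKM in WT_0d, 902, 783 and 788 in WT_5d, 440.4, 333 and 364 in PPARγ/+_0d, and 944, 1016 and 1313 in PPARγ/+_5d. The PPARγ/+_0d libraries were below all others, and on 5d the PPARγ/+ libraries were above those of WT without overlap. The difference on 0d was -1.25 ± 0.18 (adjusted p = 0.0266) and the interaction 1.64 ± 0.24 (adjusted p = 0.0154). Ccn2, a matricellular ligand, measured 32.5, 38.6 and 24.3 FPKM in WT_0d, 47.6, 37.0 and 44.5 in WT_5d, 14.1, 11.8 and 17.5 in PPARγ/+_0d, and 52.9, 69.7 and 67.7 in PPARγ/+_5d. The PPARγ/+ libraries were the lowest on 0d and the highest on 5d, with -1.12 ± 0.21 on 0d (adjusted p = 0.0489) and an interaction of 1.68 ± 0.27 (adjusted p = 0.0180). Tnc, tenascin-C, differed by -1.51 ± 0.22 on 0d (adjusted p = 0.0267), with 24.8 to 33.0 FPKM in WT_0d and 7.002 to 11.9 in PPARγ/+_0d. The calls on 0d were lost in most fits with a library of either group left out, while the differences kept their direction. With 1 library left out Spp1 was called on 0d in 1 of 6 fits, Tnc in 1 and Ccn2 in 0 (median-ratio scaling also ended that of Ccn2), with the differences between -1.66 and -0.97. The interaction of Spp1 was called in 11 of 12 fits, without PPARγ/+_0d replicate 2 at 1.55 (adjusted p = 0.0525), and that of Ccn2 in 8 of 12, without WT_5d replicate 2, PPARγ/+_0d replicate 2 or PPARγ/+_5d replicate 2 or 3 at 1.54 to 1.63 (adjusted p from 0.0532 to 0.0670). On 5d limma called 0 of the 16 (against 0.155% of all genes), with 5 at an unadjusted p of at most 0.05 (against 12.7% of all genes).

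The members lie on 14 chromosomes, with 7 on chromosome 2 and 5 on chromosome 11. Itga1 rose on 5d while Itga2, 20995 bases away on chromosome 13, had at most 2 fragments. Itgam, Itgax and Itgad follow each other on chromosome 7 with gaps of 11055 and 3718 bases, and only Itgad exceeded 3 fragments. Exons of Itgam share 3450 bases with Gm49368 on the same strand, and reads in shared exons were not separated.

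Promoters are shown for members that rose from 0d to 5d in both cell types, since these moved together. RefSeq promoters (GRCm38.p6) were at hand for 23 of the 37 members and 5 of the 7 that rose in both. The other 2 are Itga7 and Itgb2. The motif searched was the E-box CANNTG, the element that basic helix-loop-helix factors such as MyoD bind, in the 250 bases before the annotated start. It reads the same on both strands. Of 32851 such windows 66.2% held it, as did 21 of the 26 windows of members (80.8%) and 5 of the 6 windows of those that rose in both (83.3%). These 6 include a further Itgb6 window that lies inside the gene and is not shown. For Itga11 and Itgb6 the stretches shown are 221 and 210 bases long, shorter than the 250 searched. A match is a description and not a binding site. The sequences run 5′ to 3′ on the strand of the gene, with matches in capitals. Itga1 lies at chr13:115101965-115102214 (minus strand, 1 match), Itga10 at chr3:96645334-96645583 (plus strand, 0 matches), Itga11 at chr9:62677605-62677825 (plus strand, 1 match), Itga8 at chr2:12301945-12302194 (minus strand, 2 matches) and Itgb6 at chr2:60722644-60722853 (minus strand, 2 matches shown).
Itga1: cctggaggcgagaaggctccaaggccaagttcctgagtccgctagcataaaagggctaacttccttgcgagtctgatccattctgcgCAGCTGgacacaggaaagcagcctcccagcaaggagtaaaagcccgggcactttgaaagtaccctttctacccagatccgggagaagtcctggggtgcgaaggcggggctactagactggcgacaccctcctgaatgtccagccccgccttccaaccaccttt
Itga10: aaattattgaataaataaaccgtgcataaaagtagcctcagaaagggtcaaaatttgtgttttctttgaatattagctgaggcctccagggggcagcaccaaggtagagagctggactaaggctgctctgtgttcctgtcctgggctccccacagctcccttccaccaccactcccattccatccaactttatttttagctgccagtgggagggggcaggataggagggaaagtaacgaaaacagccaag
Itga11: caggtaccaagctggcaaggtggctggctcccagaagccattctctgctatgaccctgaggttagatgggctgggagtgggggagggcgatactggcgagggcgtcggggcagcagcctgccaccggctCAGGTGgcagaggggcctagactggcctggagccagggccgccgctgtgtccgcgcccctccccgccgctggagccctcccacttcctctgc
Itga8: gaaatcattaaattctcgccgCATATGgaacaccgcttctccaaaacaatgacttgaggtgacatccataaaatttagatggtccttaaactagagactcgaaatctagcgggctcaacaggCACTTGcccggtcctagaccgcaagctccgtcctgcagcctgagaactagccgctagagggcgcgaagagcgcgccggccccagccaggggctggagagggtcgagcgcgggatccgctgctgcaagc
Itgb6: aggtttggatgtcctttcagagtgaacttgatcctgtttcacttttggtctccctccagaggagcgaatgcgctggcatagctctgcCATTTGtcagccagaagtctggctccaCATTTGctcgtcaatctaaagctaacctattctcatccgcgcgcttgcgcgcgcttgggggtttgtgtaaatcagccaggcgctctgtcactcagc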

How the data were processed

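RNA from 12 libraries in 4 groups of 3 was analysed. According to the authors, Trim Galore cleaned the reads, STAR mapped them to mouse GRCm38 (the processing notes name mm9), HTSeq counted them per Ensembl gene, and FPKM was calculated, and tool versions are not given in the sources used here. The deposited log2 table equals log2(FPKM + 1) to within 5.33e-14 and was not used further. Fragments were recovered as FPKM × length × mapped read pairs: of 27138 genes above 0, 21030 gave whole numbers within 0.0001 with the annotated exonic length, and for 6108 the smallest length that did so was inferred (7 of the 37 members). Floors cover counting error only, and confidence intervals come from the spread between libraries.

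Genes that reached 0.1 FPKM in 3 or more libraries were tested with limma 3.58.1 (R 4.3.3) on log2(FPKM + 0.1), with empirical Bayes and a mean trend, on the 6 libraries of each comparison and on all 12 for the interaction. P-values were adjusted by Benjamini-Hochberg. Confidence intervals are 95%. Python 3.11.15, numpy 2.4.6, pandas 2.3.3 and matplotlib 3.10.9 were used. Libraries with the same number in the labels correlated at -0.07 to 0.08 in their deviations from the group means. No replicate block was therefore used in the main fits. With 3 libraries a group, this does not settle whether libraries with the same number were handled together. With the block no member was called on 0d, as given at the end. Gene positions and exon overlaps come from the Ensembl annotation of GRCm38.

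Values in every library were given for members called in any comparison with a group mean of at least 1 FPKM and for the 5 members with the highest mean. From each partner list up to 3 called genes per direction and day comparison with a group mean of at least 1 FPKM were named. Itga1, Itga4, Itga8, Itgad, Itgae, Itgb4, Itgb8, Lama1, Lama5, Lamc1, Lamc3, Col18a1, Col4a1, Dag1, Tns2, Spp1, Tnc, Ccn2 and Ilk were added after their values were seen or to account for each member. Results of 1 member, 1 partner gene and some markers are not reported here. The members and lists were chosen with earlier results of these data known. Alternatives were other added values, other filters, median-ratio scaling, a replicate block, an adjusted p for the day comparisons, all 12 libraries in 1 fit, and leaving out each library.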

Additional observations from a re-analysis of the deposited data

How the results depend on the processing

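Of 283 alternative values for called fold changes of members named in full, 250 kept their direction and their side of the threshold and 33 kept only the direction. Of 227 alternative values for their interactions 218 kept both, 4 passed the threshold and 5 reversed. The reversed interactions were those of Itga7 (-0.22 with both WT libraries that stood apart left out), Itgb2 (-0.0038 with 1 added to the FPKM) and Itgb6 (-0.15 with 1 added, -0.52 with both libraries left out, and -0.41 to 0.50 with each library left out in turn, the lowest without WT_5d replicate 3). None of the 5 passed the test (adjusted p from 0.413 to 0.995). The cause was not tested.

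With 1 added to the FPKM, 4 members were called over time in WT cells and 5 in PPARγ/+ cells. Other counts over time were 8 to 12 in both. Left out 1 at a time, libraries gave 8 to 12 in WT and 10 to 11 in PPARγ/+ cells. On 0d, 1 member was called with 1 added, 2 without a filter and 1 to 3 with each library left out. On 5d, 1 was called with 0.01 added, 1 with all 12 libraries in 1 fit, and 0 to 7 with each library left out. For the interaction 0 to 2 were called with each library left out, and 2 with both WT libraries left out, the alternative chosen after seeing the data. The causes were not tested. Replicate numbers were also tried as a block: 18 pairs of libraries with the same number correlated at -0.07 to 0.08 in their deviations from the group means, and 36 pairs with other numbers at -0.12 to 0.10. The block gave 12 and 11 members over time, 0 on 0d (limma, with 0 of all genes), 0 on 5d and 0 for the interaction. Where a count stands without a share of all genes, it describes the members alone and was not set against all genes.

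With 3 libraries a group, differences smaller than the intervals given could not be told from 0. Members with under 100 fragments in a library, such as Itga1, Itga8, Itgad and Itgb6 on 0d, rest on small counts, and reads in exons shared by 2 genes were not separated.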
